A study of Mus musculus with 12 samples.

Results

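The 10 genes followed here belong to the Nodal and TGF-beta pathway and were measured in mouse embryonic stem cells (ESCs) with and without microRNAs: the ligand gene Nodal, its secreted antagonists Lefty1 and Lefty2, the coreceptor gene Tdgf1, the receptor genes Tgfbr1, Tgfbr2, Acvr2a and Acvr2b, the transducer gene Smad2 and the feedback inhibitor gene Smad7. The 10 genes were a named list, found by matching the gene identifiers of the count table to mouse gene symbols, and all 10 were present among its 51467 gene rows. Wild-type cells were the V6.5 ESC line, and Dgcr8 knockout (Dgcr8 KO) cells were a single line made earlier that lacks DGCR8, a protein needed to cut microRNA precursors out of their primary transcripts. Both genotypes were kept in serum medium with LIF and 2i (PD0325901 and CHIR99021), and both received 500 uM of the uridine analogue 4-thiouridine (4sU) for 30 min before RNA was taken. Each RNA sample was divided, 1 portion giving a total RNA library after rRNA depletion and the other a 4sU library of RNA labeled during the pulse, the measure of nascent transcription. With 3 replicates of each genotype and library type, there were 12 libraries, of 4593914 to 9295245 counts each.

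Nodal signals through a pair of receptor types. The ligand binds activin type II receptors together with a TDGF1 coreceptor, a type I receptor then phosphorylates SMAD2, and SMAD2 enters the nucleus and acts on target genes, which include Nodal itself and both Lefty genes. The LEFTY proteins are secreted and block Nodal outside the cell, SMAD7 blocks the receptors from inside, and TGF-beta ligands use the same transducers through TGFBR2 and TGFBR1. In ESCs and the early embryo the pathway is known for its role in patterning and in the exit from the naive state.

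MicroRNAs pair with matching letters in 3′ UTRs through their seed, bases 2 to 8. The most abundant family in ESCs, the ESC-specific cell cycle (ESCC) microRNAs, shares the seed letters in capitals in the mature sequences below, taken from RefSeq (GRCm38.p6), and cannot be made without DGCR8.
miR-291a-3p: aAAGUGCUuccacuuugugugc
miR-294-3p: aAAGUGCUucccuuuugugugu
miR-295-3p: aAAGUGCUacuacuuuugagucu
miR-302b-3p: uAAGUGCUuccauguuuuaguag

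Matches to this seed were found in the longest annotated 3′ UTR of 5 of the 10 genes, Lefty1, Lefty2, Tgfbr1, Tgfbr2 and Smad2, counting a 7mer (AGCACTT or GCACTTA) or an 8mer (AGCACTTA) on the transcript strand. Of 11821 tested protein-coding genes, 22.3% held such a match. The sites of Lefty1, Lefty2, Tgfbr1 and Tgfbr2, the matched genes whose total RNA rose, are printed 5′ to 3′ on the transcript strand with the matched bases in capitals. All of them lie in 3′ UTRs annotated in GENCODE M21.
Lefty1 8mer, chr1:180938213-180938220 plus strand: ctgtatgcgaAGCACTTAcatgtataga
Lefty2 8mer, chr1:180897917-180897924 plus strand: acccagtttaAGCACTTAcatgggtaaa
Tgfbr1 7mer, chr4:47411119-47411125 plus strand: cactaaatgaAGCACTTctgattttca
Tgfbr2 7mer, chr9:116089881-116089887 minus strand: ggatagcgttAGCACTTgacaatcagt
Tgfbr2 8mer, chr9:116087771-116087778 minus strand: caaaacctaaAGCACTTAttttcaatct
Tgfbr2 7mer, chr9:116085356-116085362 minus strand: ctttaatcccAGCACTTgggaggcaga

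The coordinates are those of mm10, the build of the deposited table. Around their 8mers Lefty1 and Lefty2 shared an unbroken run of 13 bases. The 8mer began at base 238 of the 425-base 3′ UTR of Lefty1 and at base 104 of the 1290-base 3′ UTR of Lefty2. Only 3.78% of tested protein-coding genes held an ESCC 8mer, against 3 of the 10 pathway genes (both Lefty genes and Tgfbr2). No share of matched genes given for any of the seeds takes account of 3′ UTR length. Smad2 held 3 ESCC 7mers in a 3′ UTR of 6233 bases, but 2 of them lay beyond the end of the gene as it was counted. Nodal, Acvr2a and Smad7 held only the 6-base core GCACTT, and neither Tdgf1 nor Acvr2b held it. A match describes letters in an annotated window and does not show that a microRNA bound there.

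**Figure D1:**
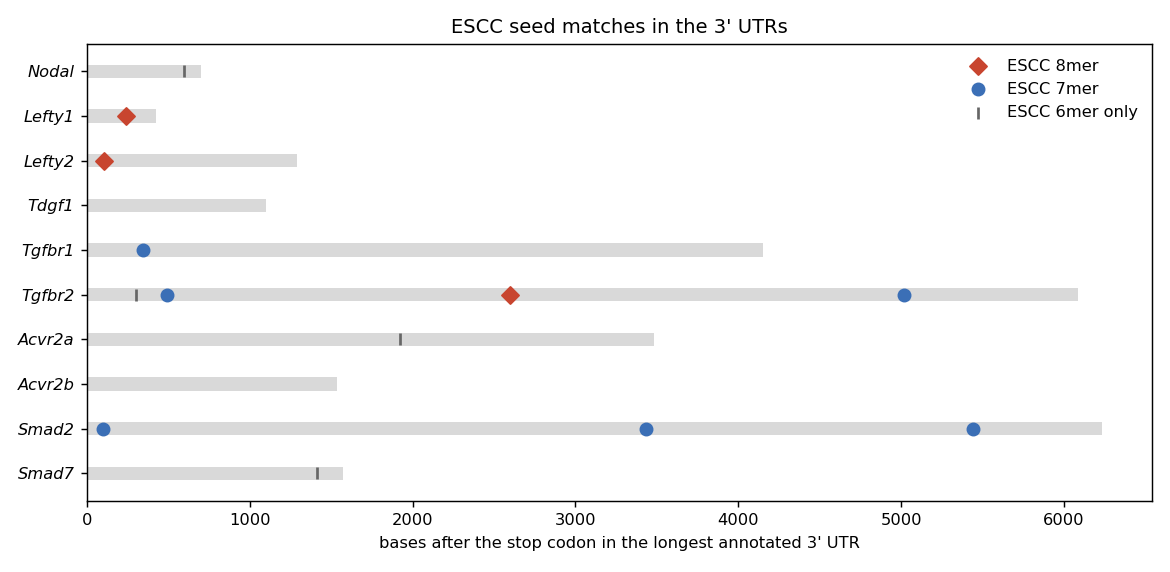
ESCC seed matches in the longest annotated 3′ UTR of each of the 10 genes, placed by the number of bases after the stop codon; grey bars are the 3′ UTRs, diamonds 8mers, circles 7mers and ticks matches of the 6-base core alone. Tgfbr2 holds 1 8mer and 2 7mers over 6085 bases, and the single 8mers of Lefty1 and Lefty2 begin at base 238 and base 104 after the stop codon.

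The seeds of 2 other families searched in the same way overlap this one only in part. The miR-17 seed (miR-17-5p and miR-20a-5p) is shifted by 1 base, so that the letters GCACTTT hold the 6-base cores of both families. A 7mer or 8mer for it was found in Tgfbr1, Tgfbr2, Acvr2a, Smad2 and Smad7, against 23.2% of tested protein-coding genes. For the miR-15/16 seed (miR-15a-5p and miR-16-5p) the genes were Tgfbr1, Tgfbr2, Acvr2a, Acvr2b, Smad2 and Smad7, against 31.4%. Neither Lefty gene held a site of these 2 families, and Nodal and Tdgf1 held a 7mer or 8mer of none of the 3 families.

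The genotype labels were checked by Dgcr8 itself. In total RNA it lay at 101, 111 and 92.5 CPM (counts scaled to a common library size) in wild-type and at 33.6, 34.1 and 32.0 CPM in Dgcr8 KO libraries, a log2 change of −1.60. The 8 ESC marker genes summed to 4950 to 5040 CPM in wild-type and 4840 to 4920 CPM in Dgcr8 KO total RNA, and to 5810 to 5970 CPM against 6520 to 7160 CPM in 4sU RNA. Single ESC markers moved both ways in total RNA. Means were higher in Dgcr8 KO cells for Pou5f1, Sox2 (495 to 619 CPM) and Zfp42. They were lower for Nanog, Esrrb, Klf4, Tfcp2l1 and Sall4 (475 to 346 CPM). Summed fibroblast markers were at 2.09 to 3.43 CPM in wild-type and 0.564 to 1.44 CPM in Dgcr8 KO, with 2 of 8, Dcn and Postn, at 0 in every library. Primitive endoderm markers summed to 8.90 to 11.5 CPM against 9.99 to 12.8 CPM, and trophoblast markers to 4.63 to 6.04 CPM against 4.02 to 4.47 CPM, or 25.3 to 27.8 CPM against 18.4 to 21.9 CPM in 4sU RNA. Within the primitive endoderm list Pdgfra went from a mean of 0.948 to 4.54 CPM and Dab2 from 1.99 to 0.0914 CPM in total RNA. The part of these cells in the results was not tested, and in bulk RNA fewer cells of a type and less RNA per cell cannot be told apart.

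To separate changes in transcription from changes in stability, 3 differences between Dgcr8 KO and wild-type were taken for each gene from 1 limma model: the log2 change in total RNA, the log2 change in 4sU RNA (nascent), and the first minus the second, which is the change in the ratio of total to 4sU RNA and served as the change in mRNA stability. A gene was called when its Benjamini-Hochberg adjusted p over all 14033 tested genes was under 0.05 and its log2 change exceeded 1 in either direction. All 10 genes passed the filter on low counts. In total RNA 2 of them were called, Lefty1 and Tgfbr2, where 17.2% of all tested genes were. Lefty1 was the 1 gene called in nascent RNA, against 14.8% of all tested genes, and the 1 gene called for stability, against 1.76%.

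With the adjusted p alone, 5 of the 10 rose in total RNA (Nodal, Lefty1, Lefty2, Tgfbr1 and Tgfbr2) and 1 fell (Smad7), where 27.2% of all tested genes rose and 36.7% fell. In nascent RNA 5 rose (Nodal, Lefty1, Lefty2, Tdgf1 and Acvr2b) and Smad7 fell, against 28.3% and 28.0% of all tested genes. For stability, Lefty1 and Tgfbr1 rose and Tdgf1 and Acvr2b fell, against 5.02% and 11.1% of all tested genes. The median log2 change of the 10 genes was 0.20 in total RNA, 0.22 in nascent RNA and 0.15 for stability. Over all tested genes these medians were −0.09, −0.02 and −0.09. Wild-type and Dgcr8 KO values did not overlap for 68.8% of all tested genes in total RNA and for 59% in nascent RNA. A lack of overlap, given below for single genes, was thus common in both library types.

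**Figure D2:**
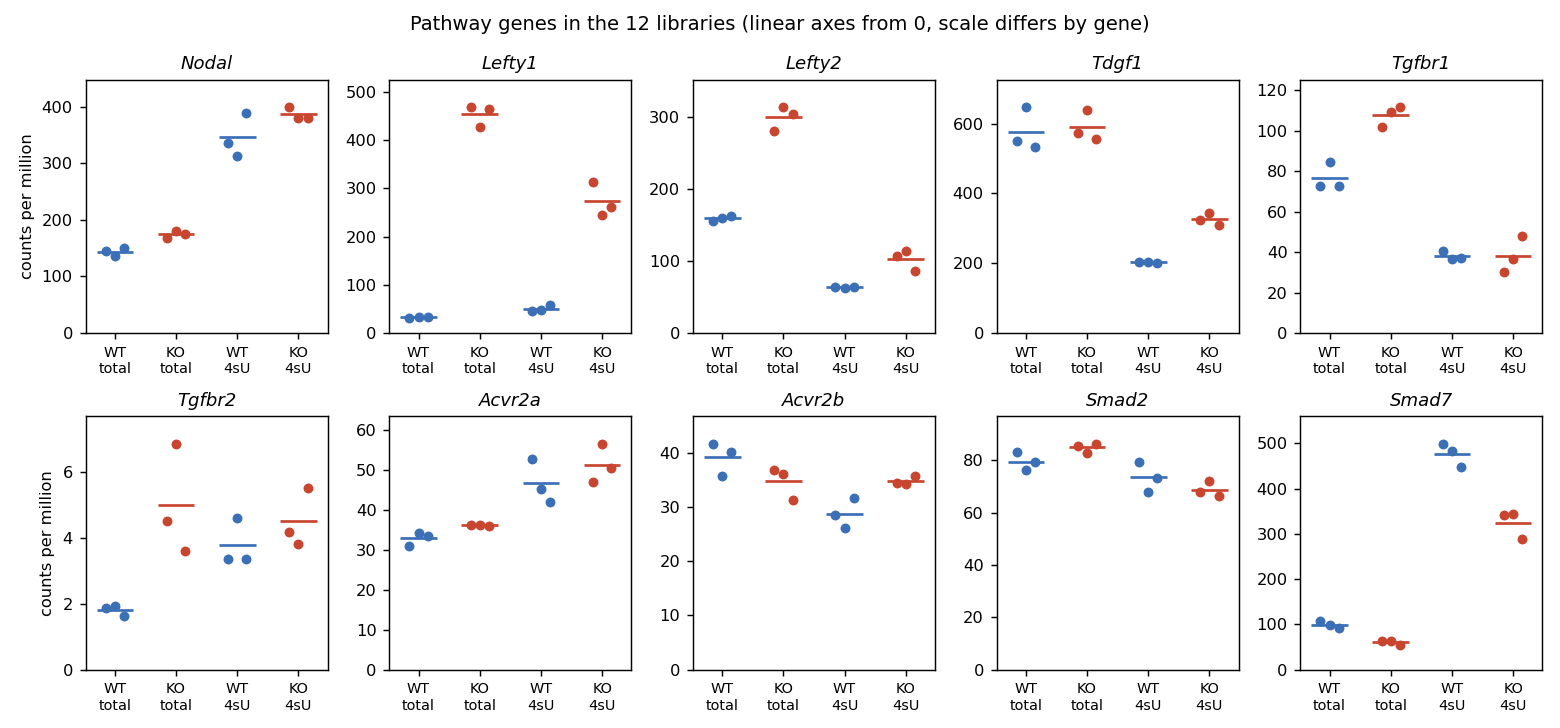
CPM of each gene in every library, with wild-type libraries in blue, Dgcr8 KO libraries in red and lines at the mean of 3 replicates; axes are linear from 0 and differ between genes. Lefty1 rises from 31.4 to 34.2 CPM in wild-type total RNA to 428 to 469 CPM in Dgcr8 KO total RNA, while Smad7 lies lower in all Dgcr8 KO libraries of both library types.

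The secreted antagonist Lefty1 rose the most of the 10 genes in total and in nascent RNA, and its stability rose as well. The gene (ENSMUSG00000038793.8) lies on chromosome 1 from 180935022 to 180938400 on the plus strand. Its total RNA stood at 31.4, 33.8 and 34.2 CPM in wild-type libraries and at 469, 428 and 465 CPM in Dgcr8 KO libraries. No Dgcr8 KO library came near a wild-type one. The log2 change was 3.77 (SE 0.0893, adjusted p = 8.39e-26 by limma), or 13.6-fold, which placed Lefty1 at the 99.6th percentile of all tested genes.

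Nascent Lefty1 RNA rose too, but by less. The 4sU libraries held 46.0, 48.7 and 57.5 CPM in wild-type and 314, 246 and 262 CPM in Dgcr8 KO cells, again without overlap. This was a log2 change of 2.43 (SE 0.0908, adjusted p = 2.70e-20 by limma), or 5.38-fold. The remaining 1.34 (SE 0.127, adjusted p = 3.12e-09 by limma), or 2.53-fold, was the rise in stability. Ratios per culture were taken between the 4sU and total libraries of the same replicate number, which the labels do not state to come from the same RNA sample. For Lefty1 this log2 ratio of total to 4sU RNA was −0.55, −0.53 and −0.75 in wild-type and 0.58, 0.80 and 0.83 in Dgcr8 KO cells. Relative to other genes, the ratio of Lefty1 moved from the 32.4th percentile in wild-type to the 72.8th percentile in Dgcr8 KO cells.

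Lefty2, the neighbour and close paralog of Lefty1, rose in total and in nascent RNA, by less than Lefty1 in both. It is encoded on the same strand of chromosome 1 (ENSMUSG00000066652.5, 180893108 to 180899103), with 35918 bases between the end of Lefty2 and the start of Lefty1. Wild-type total RNA libraries held 155, 159 and 162 CPM and Dgcr8 KO libraries 280, 314 and 303 CPM, so that every Dgcr8 KO value was above every wild-type value. The log2 change was 0.91 (SE 0.0614, adjusted p = 2.88e-14 by limma), or 1.88-fold. In 4sU RNA the values were 63.9, 63.0 and 63.5 CPM in wild-type and 107, 113 and 86.2 CPM in Dgcr8 KO cells, a log2 change of 0.67 (SE 0.0860, adjusted p = 6.46e-08 by limma) with no overlap.

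The stability of Lefty2 mRNA did not pass the threshold over all genes. Its log2 ratio of total to 4sU RNA was 1.28, 1.34 and 1.35 in wild-type cultures and 1.39, 1.47 and 1.81 in Dgcr8 KO cultures, the last group higher throughout. The difference was 0.23 (95% confidence interval 0.02 to 0.45, adjusted p = 0.141 by limma), and with DESeq2-style size factors (RLE) it was 0.32 and passed (adjusted p = 0.0407, in a range of 0.0407 to 0.589 over all alternatives). Lefty2 already had a high ratio in wild-type cells, at the 86.9th percentile of tested genes. The 2 Lefty genes share 17.9% of the 50-base windows of the Lefty1 transcript exactly, or 11.6% of those of Lefty2, and reads from these windows were not counted because only uniquely mapped reads were kept. The levels of both are therefore uncertain, and more so for Lefty1.

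Nodal, the ligand, rose in total and in nascent RNA, by much less than either Lefty gene. It lies on chromosome 10 from 61417972 to 61425338 on the plus strand (ENSMUSG00000037171.6). Total RNA stood at 145, 136 and 151 CPM in wild-type and at 168, 180 and 175 CPM in Dgcr8 KO cells, all of the latter higher. The log2 change was 0.28 (SE 0.0657, adjusted p = 4.74e-04 by limma), or 1.21-fold. In 4sU RNA the wild-type values of 336, 313 and 389 CPM overlapped the Dgcr8 KO values of 400, 380 and 381 CPM, and the log2 change of 0.16 (SE 0.0598, adjusted p = 0.0201 by limma) missed the adjusted p threshold in limma with RLE size factors (0.11, adjusted p = 0.126) or upper-quartile factors (0.11, adjusted p = 0.104) and in DESeq2 (0.10, adjusted p = 0.198, in a range of 4.24e-04 to 0.198 over all alternatives). Leaving out wild-type culture 2 gave 0.09 (adjusted p = 0.186), and the threshold was also missed without wild-type culture 1 (0.14) or Dgcr8 KO culture 1 (0.15). The stability difference was 0.11 (95% confidence interval −0.07 to 0.29, adjusted p = 0.444 by limma).

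The coreceptor gene Tdgf1 went in opposite directions in nascent RNA and in stability. TDGF1, also called Cripto, is bound to the cell surface and is needed for Nodal to engage its receptors. Its gene lies on chromosome 9 from 110939603 to 110946158 on the minus strand (ENSMUSG00000032494.12). In 4sU RNA the wild-type libraries held 202, 205 and 201 CPM and the Dgcr8 KO libraries 325, 344 and 310 CPM, with no overlap. Nascent Tdgf1 rose by a log2 value of 0.69 (SE 0.0711, adjusted p = 1.06e-09 by limma), or 1.61-fold.

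In total RNA Tdgf1 did not pass the threshold. Values were 550, 648 and 533 CPM in wild-type and 573, 640 and 555 CPM in Dgcr8 KO cells, with the groups interleaved. The log2 change was 0.03 (95% confidence interval −0.08 to 0.15, adjusted p = 0.641 by limma). The log2 ratio of total to 4sU RNA was 1.44, 1.66 and 1.41 in wild-type cultures and 0.82, 0.90 and 0.84 in Dgcr8 KO cultures, all of them lower. Stability fell by a log2 value of 0.65 (SE 0.0911, adjusted p = 4.33e-06 by limma), which placed Tdgf1 at the 8.10th percentile of stability changes. A processed copy of the gene, Tdgf1-ps1, shares 12.5% of the 50-base windows of Tdgf1, so the level of Tdgf1 is uncertain. Reads counted to Tdgf1-ps1 amounted to 3.82% to 5.66% of the Tdgf1 count in wild-type and 4.55% to 5.90% in Dgcr8 KO 4sU libraries.

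**Figure D3:**
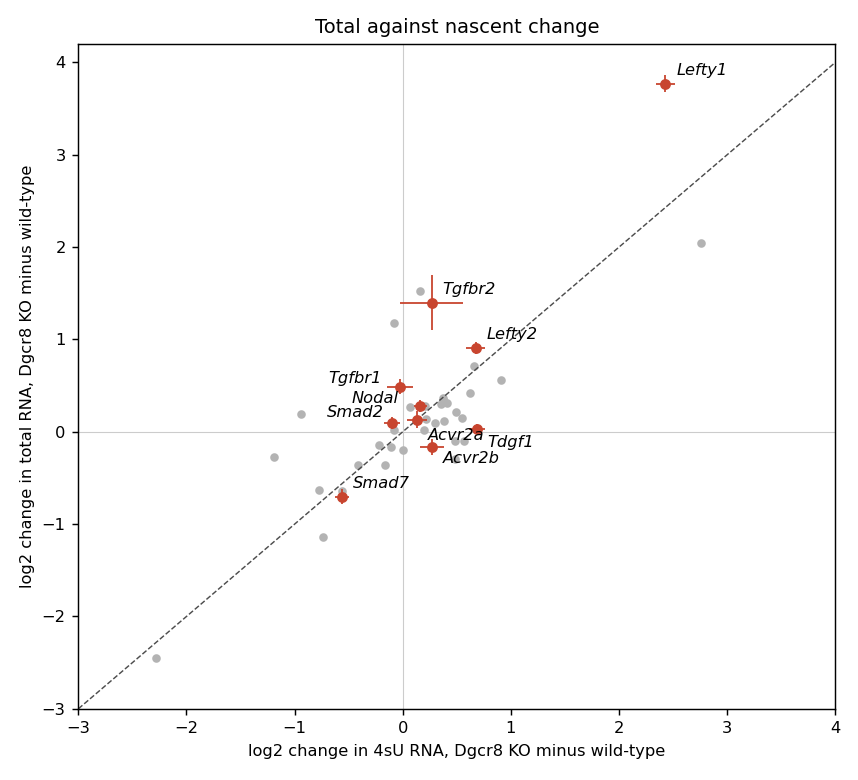
Log2 change in total RNA against log2 change in 4sU RNA, Dgcr8 KO minus wild-type; labeled red points are the 10 genes with their standard errors, grey points the 33 tested genes of the wider pathway list, and the dashed line marks equal change. Distance above the line is a rise in the ratio of total to 4sU RNA: Lefty1 lies 1.34 above it and Tdgf1 0.65 below it.

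The type I receptor gene Tgfbr1 and the type II receptor gene Tgfbr2 rose in total RNA without a detectable change in nascent RNA. Tgfbr1 encodes the kinase that phosphorylates SMAD2 after binding of TGF-beta and lies on chromosome 4 from 47353222 to 47414931 on the plus strand (ENSMUSG00000007613.15). Total RNA stood at 72.8, 84.4 and 72.9 CPM in wild-type and at 102, 109 and 112 CPM in Dgcr8 KO cells, with no overlap. The log2 change was 0.49 (SE 0.0801, adjusted p = 3.34e-06 by limma), or 1.40-fold. In 4sU RNA the values of 40.7, 36.8 and 37.0 CPM in wild-type lay within the Dgcr8 KO range of 30.0, 36.4 and 48.2 CPM, and the log2 change was −0.03 (95% confidence interval −0.27 to 0.22, adjusted p = 0.874 by limma).

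For Tgfbr1 the difference between these 2 changes passed the threshold. Its log2 ratio of total to 4sU RNA was 0.84, 1.19 and 0.98 in wild-type cultures and 1.76, 1.58 and 1.21 in Dgcr8 KO cultures, the closest pair of cultures from the 2 genotypes being 1.19 and 1.21. Stability rose by 0.51 (SE 0.146, adjusted p = 0.0134 by limma), or 1.43-fold. The adjusted p was 0.106 without wild-type culture 1 (0.43), 0.0809 without Dgcr8 KO culture 1 (0.39) and 0.0750 without Dgcr8 KO culture 2 (0.47), in a range of 0.00161 to 0.106 over all alternatives.

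Tgfbr2, which encodes the receptor that binds TGF-beta first, was the least abundant of the 10 genes, and its values rest on 12 to 53 counts per library. It lies on chromosome 9 from 116084293 to 116175360 on the minus strand (ENSMUSG00000032440.13). Total RNA stood at 1.87, 1.95 and 1.63 CPM in wild-type, under the filter of 3 CPM that the gene passed through its other libraries, and at 4.52, 6.88 and 3.61 CPM in Dgcr8 KO cells. All 3 Dgcr8 KO values were higher, with a wide spread among them. The log2 change was 1.40 (SE 0.297, adjusted p = 1.26e-04 by limma), or 2.63-fold. The 4sU values of 3.38, 4.601 and 3.38 CPM in wild-type and 4.198, 3.82 and 5.52 CPM in Dgcr8 KO cells overlapped, with a log2 change of 0.27 (95% confidence interval −0.32 to 0.86, adjusted p = 0.443 by limma).

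The stability difference of Tgfbr2 had a wide error and lay close to the threshold. The log2 ratio of total to 4sU RNA was −0.83, −1.23 and −1.04 in wild-type and 0.09, 0.83 and −0.61 in Dgcr8 KO cultures, which did not overlap. The difference of 1.13 (SE 0.415) had a limma adjusted p of 0.061 and was not called, but it was called with edgeR (1.19, adjusted p = 0.0403) and in a fit blocked on replicate number (1.20, adjusted p = 0.0347 by limma). Over all alternatives the adjusted p ranged from 0.0217, without Dgcr8 KO culture 3 (1.45), to 0.272, and the difference from 0.76 to 1.45.

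The activin type II receptor genes moved little in total RNA. Acvr2a and Acvr2b encode the type II receptors that bind Nodal and activin. Acvr2a (ENSMUSG00000052155.5, chromosome 2 from 48814109 to 48903269, plus strand) stood at 30.9, 34.3 and 33.6 CPM in wild-type and 36.2, 36.2 and 36.1 CPM in Dgcr8 KO total RNA. The 3 Dgcr8 KO values were higher, yet the log2 change of 0.13 had a 95% confidence interval of −0.06 to 0.32 (adjusted p = 0.216 by limma). In 4sU RNA the change was also 0.13 (95% confidence interval −0.06 to 0.32, adjusted p = 0.227 by limma), with overlapping values of 52.9, 45.4 and 42.0 CPM against 47.0, 56.7 and 50.5 CPM. Its stability difference was −0.0013, with a 95% confidence interval of −0.27 to 0.27. An exon of Acvr2a overlaps exons of Orc4 on the opposite strand, and the strand-specific counting kept the 2 genes apart.

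Acvr2b (ENSMUSG00000061393.14, chromosome 9 from 119402118 to 119434995, plus strand) rose in nascent RNA and fell in stability, both close to the threshold. Its 4sU values were 28.5, 26.1 and 31.7 CPM in wild-type and 34.4, 34.2 and 35.8 CPM in Dgcr8 KO cells, without overlap, for a log2 change of 0.27 (SE 0.108, adjusted p = 0.032 by limma). Total RNA stood at 41.7, 35.7 and 40.1 CPM in wild-type and 36.8, 36.1 and 31.3 CPM in Dgcr8 KO cells, which overlapped, for a log2 change of −0.16 (95% confidence interval −0.34 to 0.02, adjusted p = 0.107 by limma). The ratio of total to 4sU RNA was lower in all Dgcr8 KO cultures, at 0.10, 0.08 and −0.19 against 0.55, 0.45 and 0.34 on the log2 scale, and stability fell by 0.43 (SE 0.139, adjusted p = 0.0291 by limma).

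For Acvr2b the nascent change lost the adjusted p threshold in 7 of 16 alternatives and the stability change in 7 of 17. With DESeq2 the nascent change was 0.21 (adjusted p = 0.135, in a range of 0.0182 to 0.135 over all alternatives) and the stability change −0.35 (adjusted p = 0.155, in a range of 0.0123 to 0.155). The threshold was missed in nascent RNA without wild-type culture 1 (0.26) or 2 (0.21) or Dgcr8 KO culture 3 (0.27), and for stability without wild-type culture 1 (−0.39) or Dgcr8 KO culture 2 (−0.48) or 3 (−0.35). Without wild-type culture 2 the fall in total RNA passed the threshold (−0.24, adjusted p = 0.0274 by limma).

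Smad2, whose product carries the signal from the receptors to the nucleus, did not pass the threshold in any of the 3 differences. The gene (ENSMUSG00000024563.15) was counted on chromosome 18 from 76241580 to 76305731 on the plus strand. Total RNA stood at 83.2, 76.3 and 79.2 CPM in wild-type and at 85.6, 82.9 and 86.5 CPM in Dgcr8 KO cells, and the log2 change was 0.10 (95% confidence interval −0.03 to 0.23, adjusted p = 0.193 by limma). In 4sU RNA it was −0.10 (95% confidence interval −0.25 to 0.06, adjusted p = 0.274 by limma), with 79.5, 68.0 and 73.1 CPM against 68.0, 72.1 and 66.4 CPM. The 3 Dgcr8 KO cultures had higher ratios of total to 4sU RNA, at 0.33, 0.20 and 0.38 against 0.07, 0.17 and 0.12 on the log2 scale, a difference of 0.20 (95% confidence interval −0.01 to 0.40, adjusted p = 0.197 by limma).

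Smad7, the inhibitor that acts on the receptors inside the cell and is itself a target gene of the pathway, fell in total and in nascent RNA by similar amounts. It lies on chromosome 18 from 75367529 to 75395935 on the plus strand (ENSMUSG00000025880.11). Total RNA stood at 108, 98.9 and 92.8 CPM in wild-type and at 63.7, 64.0 and 55.1 CPM in Dgcr8 KO cells. Every Dgcr8 KO value was lower, and the log2 change was −0.70 (SE 0.0820, adjusted p = 6.60e-09 by limma), or 1.63-fold lower. In 4sU RNA the values were 500, 484 and 449 CPM in wild-type and 341, 343 and 288 CPM in Dgcr8 KO cells, again without overlap, and the log2 change was −0.56 (SE 0.0619, adjusted p = 3.47e-09 by limma), or 1.48-fold lower. The stability difference was −0.14 (95% confidence interval −0.35 to 0.07, adjusted p = 0.409 by limma).

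Exact permutation of the 6 cultures gave p = 0.1 for the ratio of total to 4sU RNA of Lefty1, Lefty2, Tdgf1, Tgfbr1, Tgfbr2, Acvr2b, Smad2 and Smad7, the smallest two-sided p that 3 against 3 cultures allow, 0.3 for Nodal and 1 for Acvr2a. Ratios of the 2 genotypes did not overlap for these 8 genes, nor for 33.4% of all tested genes.

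**Figure D4:**
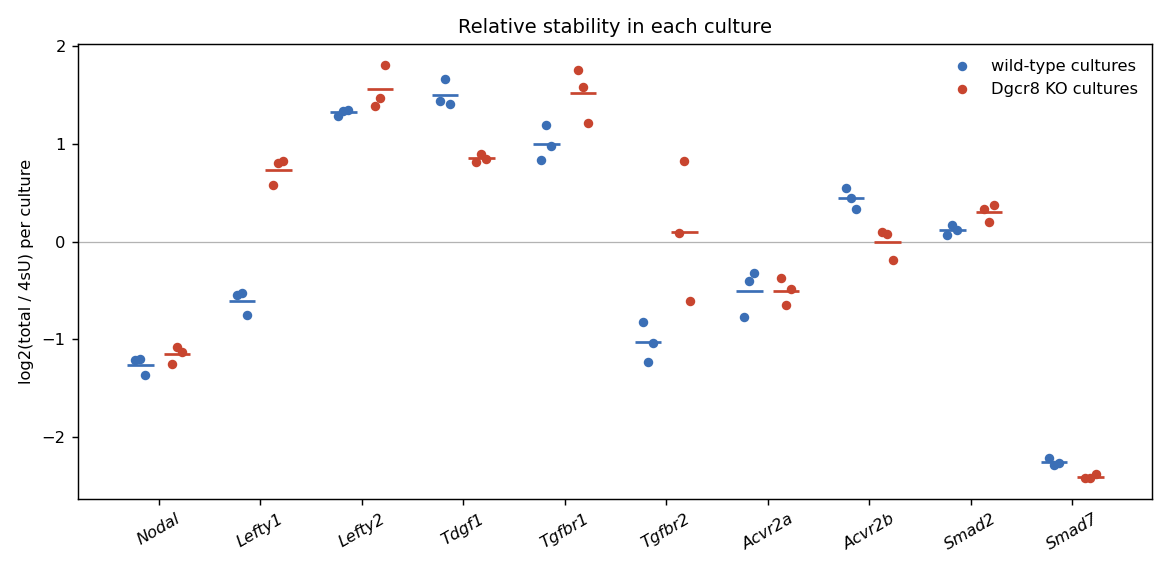
Log2 ratio of total to 4sU RNA for each gene in each of the 3 wild-type (blue) and 3 Dgcr8 KO (red) cultures, with lines at the means. Lefty1 moves from −0.61 to 0.74 on average and Tdgf1 from 1.5 to 0.85, while Smad7 has the lowest ratio of the 10 genes in both genotypes.

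The 10 genes differed widely in the ratio of total to 4sU RNA before any change of genotype. In wild-type cells Smad7 had the lowest ratio, at the 11.4th percentile of tested genes, followed by Nodal at percentile 21.3, Tgfbr2 at the 24.9th, Lefty1 at the 32.4th and Acvr2a at the 34.5th percentile. Smad2 (50.6th) and Acvr2b (60.5th) lay near the middle. The highest ratios were those of Tgfbr1 (78.6th), Lefty2 (86.9th) and Tdgf1 (90.7th). The 2 Lefty genes therefore stood far apart in wild-type cells, with log2 ratios of −0.60 (SE 0.110) and 1.32 (SE 0.0794) in the limma model, and closer in Dgcr8 KO cells, with 0.74 (SE 0.0637) and 1.56 (SE 0.0698).

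Set beside the seed matches, the stability differences of the 5 genes with an ESCC 7mer or 8mer were all above 0, from 0.20 for Smad2 to 1.34 for Lefty1, with a median of 0.51. Of the 5 genes without a match only Nodal was above 0, and the median was −0.14, in a range of −0.65 to 0.11. Acvr2a, also without a match, lay at −0.0013 and changed sign in 10 of 17 alternatives. Only Lefty1 and Tgfbr1 with a match, and Tdgf1 and Acvr2b without, passed the adjusted p threshold. Over all tested protein-coding genes the stability difference was above 0 for 53.4% of the 2635 genes with a match, at a median of 0.03, and for 32.0% of the 9186 genes without one, at a median of −0.13. Where 0 lies depends on the scaling. The median stability difference of all tested genes was −0.0916 in the main fit and −0.00257 with RLE size factors. The nascent differences of the 2 groups of pathway genes had medians of 0.27 and 0.16 and overlapped. Both Lefty 3′ UTRs hold 1 8mer, and their stability differences were 1.34 and 0.23. The separation seen in the 10 genes was absent from the tested genes of the wider pathway list. There the stability differences ran from −0.28 to 1.36 with a match and from −0.78 to 1.26 without, so the ranges overlapped.

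The order of the 10 genes in total RNA, compared as CPM per kilobase of exon, changed mainly through Lefty1. In wild-type cells Tdgf1 was highest at 299 ± 32.1 CPM per kilobase (SD, n = 3), followed by Nodal at 68.7 ± 3.59 and Lefty2 at 64.2 ± 1.45, whose ranges overlapped. Smad2 (23.7 ± 1.03) and Smad7 (22.8 ± 1.69) also overlapped, and Lefty1 came next at 20.4 ± 0.932. Tgfbr1 (11.95 ± 1.05) and Acvr2b (10.96 ± 0.865) overlapped, and Acvr2a (5.79 ± 0.312) and Tgfbr2 (0.222 ± 0.0207) came last. In Dgcr8 KO cells Lefty1 stood at 280 ± 14 CPM per kilobase, overlapping Tdgf1 at 305 ± 23.1, and above Lefty2 at 121 ± 7.03 and Nodal at 83.2 ± 2.93. Tgfbr1 (16.8 ± 0.798) lay above Smad7 (13.9 ± 1.15) in Dgcr8 KO cells, the reverse of their order in wild-type cells.

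The genes whose pattern over the 12 libraries was most like that of Lefty1, by Pearson r of log2 CPM, were Itga5 (0.996), Usp25 (0.994), Gbp2 (0.993), Erlin1 (0.992) and Halr1 (0.988). These values describe libraries that share 2 genotypes and 2 library types. In total RNA the log2 changes of the 5 genes were 1.49, 2.36, 6.45, 1.60 and 2.47.

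Other genes of the pathway were read from a list of 47, of which 33 passed the filter. Of these 33, 11 rose and 7 fell in total RNA by the adjusted p alone, where 27.2% and 36.7% of all tested genes did, and 5 also passed the fold limit, where 17.2% did. In nascent RNA 17 rose and 6 fell, against 28.3% and 28.0% of all tested genes, with 3 past the fold limit, against 14.8%. For stability 2 rose and 6 fell, against 5.02% and 11.1%, with 1 past the fold limit, against 1.76%. The calls past the fold limit were thus not more frequent in the list than among all genes in total or in nascent RNA. The median log2 changes were 0.11, 0.20 and −0.08, beside −0.09, −0.02 and −0.09 over all tested genes. The list thus had stability differences centered near those of all genes.

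All 4 tested ligands of the list, Gdf3, Inhbb, Gdf11 and Tgfb2, rose in total RNA by the adjusted p. Of all tested genes 27.2% rose. Gdf11 and Tgfb2 also passed the fold limit, where 17.2% of all tested genes did in either direction. The other ligands of the list did not pass the filter. Among those, also named after their values were seen, mean total RNA of Tgfb1 was 1.81 CPM in wild-type and 0.388 CPM in Dgcr8 KO cells. For Tgfb3 the means were 0.222 and 0.866 CPM. The log2 change in total RNA was 0.33 for Gdf3 (adjusted p = 3.23e-06 by limma) and 0.72 for Inhbb (adjusted p = 9.68e-05 by limma), which were named after their values were seen. Gdf11, an activin-like ligand, stood at 4.06, 3.29 and 5.35 CPM in wild-type and at 11.1, 12.9 and 12.7 CPM in Dgcr8 KO total RNA, a log2 change of 1.52 (SE 0.196, adjusted p = 4.37e-08 by limma) without overlap. Its nascent change was 0.16 (adjusted p = 0.447 by limma), and its stability rose by 1.36 (SE 0.262, adjusted p = 3.57e-04 by limma). Tgfb2 rose by 1.18 in total RNA (SE 0.362, adjusted p = 0.00508 by limma) on only 5 to 21 counts per total library. Its stability difference was 1.26 (adjusted p = 0.0712 by limma), and its call in total RNA was lost with limma-trend and without wild-type culture 1 or 2 or Dgcr8 KO culture 1.

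Dand5 and Ltbp1 fell in total RNA. Dand5, a secreted Nodal antagonist, fell in total RNA with a log2 change of −1.143 (SE 0.295, adjusted p = 0.00110 by limma), from 3.28, 3.54 and 4.18 CPM to 1.35, 2.08 and 1.59 CPM. This call was lost with limma-trend and without Dgcr8 KO culture 1. Ltbp1, which anchors latent TGF-beta in the matrix, fell from 41.2, 37.4 and 37.8 CPM to 7.34, 7.01 and 6.64 CPM. Its log2 change was −2.45 in total RNA (SE 0.139, adjusted p = 3.90e-16 by limma) and −2.29 in nascent RNA (SE 0.280, adjusted p = 3.12e-08 by limma). Counts were low, at 11 to 13 per Dgcr8 KO 4sU library for Ltbp1 and 11 to 16 per Dgcr8 KO total library for Dand5. With 3 CPM asked of all libraries neither gene was called.

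The list held 10 target genes of the pathway, of which 6 were tested. Of these, 2 rose and 0 fell in total RNA by the adjusted p from limma, where 27.2% of all tested genes rose and 36.7% fell. In nascent RNA 3 rose and 2 fell, where the shares over all tested genes were 28.3% and 28.0%. With 6 genes these counts are a description only.

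The intracellular inhibitors of the pathway numbered 11, Smad7 included. In nascent RNA 8 of them rose and 2 fell by the adjusted p alone, where 28.3% and 28.0% of all tested genes did. In total RNA 2 rose and 4 fell, where 27.2% and 36.7% did, and in stability 0 rose and 3 fell, where 5.02% and 11.1% did.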

How the data were processed

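Total RNA and 4sU-labeled RNA of 3 wild-type and 3 Dgcr8 KO ESC cultures were sequenced with single-end reads. The deposited values are whole-number counts per gene, not normalized. To make them the authors trimmed reads with Cutadapt 1.14, mapped them uniquely to mm10 with STAR 2.5.3a and assigned them by strand to GENCODE M14 genes, rRNA genes removed, with featureCounts 1.5.3. Unique mapping under-counts near-identical genes. The 92 ERCC rows held 1 count and were left out, so no absolute scaling was possible, and all changes are relative to the other genes of a library.

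Groups and replicate numbers were read from sample titles, which name Dgcr8 as the deleted gene. The source name of the Dgcr8 KO libraries reads DDX8KO instead, and the titles were used. Genes with at least 3 CPM in at least 3 libraries were scaled by TMM (edgeR 4.0.16) and fitted with limma 3.58.1 and voom weights in R 4.3.3, in 1 model for all 12 libraries with genotype, library type and an interaction term. This is the design of the study's methods. CPM are counts over TMM-scaled library sizes. Ratios per culture used a pseudocount of 0.5 and were tested by exact two-sided permutation. Counts of 4593914 to 9295245 per library limit precision for Tgfbr2 above all. The study lists a single Dgcr8 KO line and nothing states that replicates were independent lines, so p-values measure only the spread between these samples. Any other difference between the wild-type and Dgcr8 KO lines cannot be told apart from the loss of Dgcr8. Every pair of replicates was less alike than counting noise alone gives (chi-square over its degrees of freedom 1.54 or more).

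The 3′ UTRs came from GENCODE M21, to which 51274 gene rows matched by identifier, and microRNA sequences from RefSeq, where miR-302a-3p was not matched. Named genes were the 10 members, Dgcr8, the genes of the pathway list called in at least 1 difference (some of which are not reported here), and the 5 genes most like Lefty1. Members and lists were chosen with earlier results of these data known. Scripts were tested on simulated data. Alternatives were edgeR, DESeq2 1.42.0, limma-trend, other scalings, filters and site definitions, no fold limit, blocks for replicate number or culture, and leaving out each culture.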

Additional observations from a re-analysis of the deposited data

Results flagged for a closer look

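For 4 genes the genotype change differed between total and nascent RNA by the interaction term of the limma model. It was 1.34 for Lefty1, −0.65 for Tdgf1, 0.51 for Tgfbr1 and −0.43 for Acvr2b, on the log2 scale as total minus nascent change. For each of the 4 genes the ratios of the 2 genotypes did not overlap. That also held for Lefty2, Tgfbr2, Smad2 and Smad7, and for 33.4% of all tested genes. The differences of Lefty1 and Tdgf1 kept their direction and an adjusted p under 0.05 in all 17 alternatives, in ranges of 1.27 to 1.43 and −0.71 to −0.56. Those of Tgfbr1 and Acvr2b missed that threshold in 4 and 7 of 17.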

How the results depend on the processing

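Of 487 recomputed values over 30 member results, 437 kept direction and side of the adjusted p threshold of 0.05, 24 lost it, 9 gained it and 17 changed sign. The cause was not tested except where stated. Lifting the fold limit left the fit unchanged. Its values for single genes were therefore kept by construction, here and in each count of alternatives above. Lefty1 kept its call throughout. Of the 10 genes, 2 were called in total RNA, but 1 with 3 CPM asked of all libraries, where Tgfbr2 was not tested, and 6 without a fold limit. In nascent RNA 1 became 6 without a fold limit. For stability 1 became 2, Tgfbr2 being added, with edgeR, with RLE size factors, with a replicate block and with a culture replicate block. It became 4 without a fold limit and was 1 to 2 when single cultures were left out. The pathway list gave 5 calls in total RNA, but 3 with limma-trend, without Dand5 and Tgfb2, 10 without the filter, 2 with 3 CPM in all libraries and 18 without a fold limit. In nascent RNA its 3 calls became 7 without the filter and 23 without a fold limit. Its 1 stability call became 2 with DESeq2, limma-trend, RLE or no filter, and 8 without a fold limit. Genes with an ESCC site were 5, but 3 with 8mers only and 8 with the 6-base core. The sign changes were in 3 results that passed no threshold. Tdgf1 in total RNA ranged from −0.03485 to 0.111 as cultures were left out. Tgfbr1 in nascent RNA was 0.00051 with edgeR, and −0.189 to 0.142 without single cultures. Acvr2a stability was 0.00027 with edgeR, 0.0899 with DESeq2, 0.0873 with RLE, 0.0651 with upper-quartile factors, 0.0247 with library size only, 0.0164 without the filter, 0.0101 with 3 CPM in all libraries, and −0.144 to 0.0885 without single cultures. Smad2 in total RNA passed with library size only (0.15, adjusted p = 0.0443 by limma). Among all genes called for stability 44.9% rose, against 62.0% with RLE, 63.8% with DESeq2 and 58.1% with upper-quartile factors. Same-numbered 4sU and total libraries of a genotype deviated together only weakly (r 0.011 to 0.0783). The main model followed the design of the study's methods and did not pair replicate numbers. The ratios per culture did, as did the fits with a block. Neither block changed any other call of the 10 genes.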
